A study of Mus musculus with 8 samples.

Results

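The collagen genes of the mouse were followed here in embryonic stem (ES) cells that had lost either the SUMO-conjugating enzyme Ubc9 or 3 linker histones. The members were all gene symbols of the form Col, number, a, number in the deposited count tables, which gave 44 of 24421 genes. By the structure of the protein they fall into 11 fibrillar genes, 9 network-forming genes, 9 FACIT genes (collagens that sit on the surface of other fibrils) and 15 others, which take in the type VI, transmembrane, anchoring and basement membrane-zone collagens. The symbols were chosen by name and not by a measured value, but the family was picked with results of these data known, among them the rise of Col6a5 after Ubc9 depletion. Values of that comparison are therefore given as a description, and nothing is read from how many members passed its threshold.

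PolyA RNA was sequenced from 8 libraries of mouse ES cells grown in 2i/LIF (3 to 4 passages), which keeps ES cells naive, and the libraries form 4 groups of 2. Ubc9-depleted v6.5 cells, which received doxycycline for 72 hours, were set against v6.5 control cells (labelled Ubc9-WT), and both were made into libraries with the ScriptSeq v2 kit. H1 triple-knockout cells (H1-TKO), in which the linker histone genes Hist1h1c, Hist1h1d and Hist1h1e are inactivated, were compared with H1_WT cells, and these libraries were made with the Lexogen SENSE V2 kit from lines taken from an earlier publication. The labels do not give the construct through which doxycycline acts, whether the Ubc9 controls also received it, how many clones stand behind the H1 TKO line, or whether libraries of the same group are separate cultures. The p-values therefore reflect the spread between libraries alone, which may be technical.

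Collagens are secreted proteins in which 3 chains wind into a triple helix. Fibrillar collagens (types I, II, III, V, XI, XXIV and XXVII) build the cables of connective tissue, type IV forms the sheet of basement membranes, and type XVIII is a basement membrane proteoglycan whose end fragment is endostatin. Each chain is hydroxylated, glycosylated and folded in the endoplasmic reticulum, trimmed outside the cell and cross-linked, so collagen output depends on a set of dedicated enzymes as well as on the collagen genes. Early embryonic cells are known for basement membrane collagens, while type I and type III collagen are typical of fibroblasts and other mesenchymal cells.

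The libraries held 75972231 to 102780141 counts over genes in the Ubc9 table and 44441713 to 68445181 in the H1 table, so that 3 counts equal 0.0292 to 0.0675 CPM (counts scaled to library size, here and below with TMM factors). Hist1h1c, Hist1h1d and Hist1h1e had 0 counts in both H1 TKO libraries against 1.64 to 4.48 CPM in the H1 controls. Naive ES cell markers were present in every library, with 0 of 8 markers at 0 counts. Ubc9-depleted library 1 stood apart, with counts on 23462 genes, where its partner and the controls had 18584 to 19591, so results are also given with depleted library 2 alone against the controls. In bulk RNA, fewer cells of a type and less RNA per cell cannot be told apart.

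Collagen genes were a small part of the RNA of these cells and a larger part after Ubc9 depletion. They took 0.0505% and 0.0407% of all counts in Ubc9-depleted libraries 1 and 2, against 0.0282% and 0.0236% in the controls. In the H1 table the share was 0.00556% and 0.00544% in TKO libraries and 0.00658% and 0.00804% in controls. The kits differ between the tables, so the levels are not compared across them. Of the 39 members tested in the Ubc9 comparison, 30 were higher and 1 was lower in depleted cells at an adjusted p under 0.05, where 21.1% and 15.0% of all 16499 genes tested were higher and lower (quasi-likelihood F test of edgeR, Benjamini-Hochberg adjusted). With depleted library 2 alone, 27 were higher and 2 lower, against 19.0% and 15.3% of 16454 genes. The median log2 fold change was 1.80 over the members tested, and 0.06 over all genes tested. With library 2 alone these medians were 1.31 and -0.01.

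**Figure D1:**
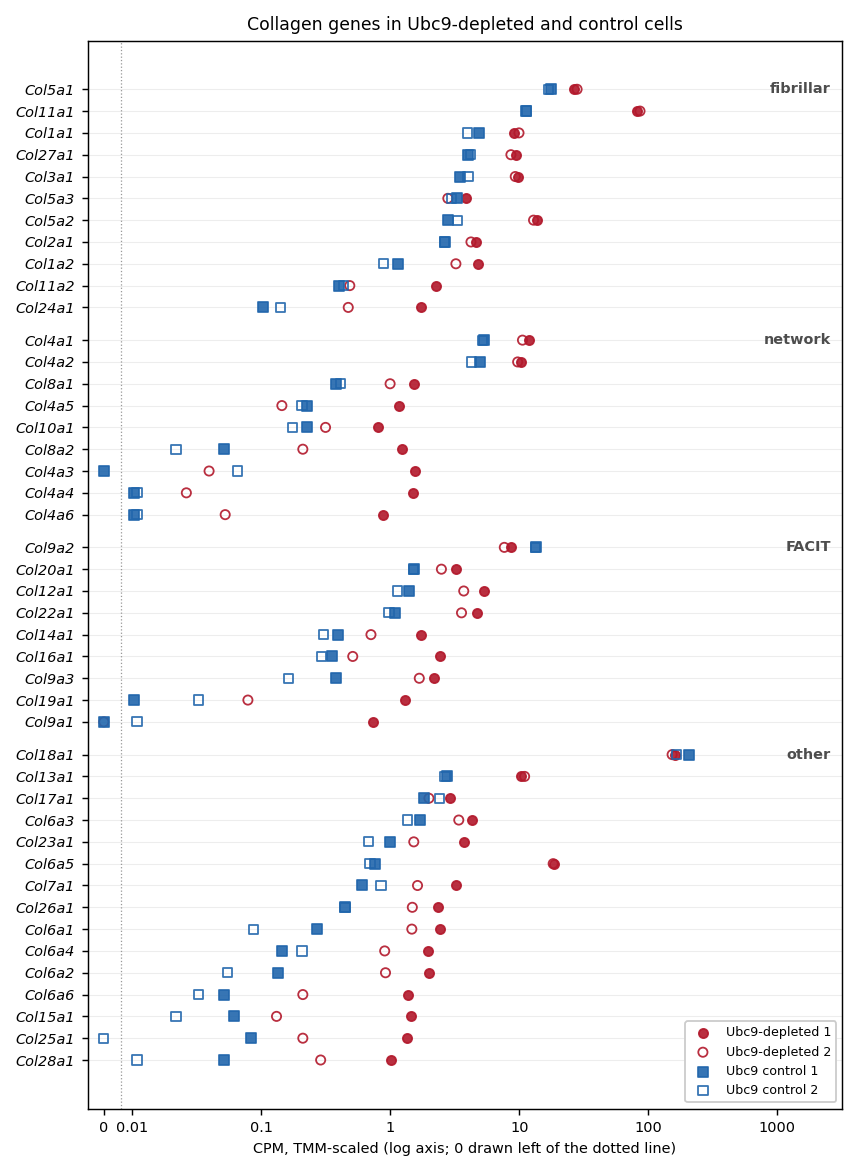
CPM of the 44 collagen genes (log axis) in Ubc9-depleted libraries (circles) and control libraries (squares), by class. In 37 genes both depleted libraries lie above both controls. Filled circles, depleted library 1, lie to the right of open circles in 40 genes, and the gap is widest in the genes with the lowest control levels.

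The largest changes among well-measured members belonged to Col6a5 and Col11a1. Col6a5, which encodes a chain of the type VI collagen that forms beaded microfilaments, had 18.4 and 18.3 CPM in depleted libraries against 0.762 and 0.695 CPM in controls, a 25.2-fold difference of the means. Its log2 fold change was 4.65 ± 0.16 (± SE here and below). Col11a1, a chain of the thin fibrils of cartilage, had 82.2 and 86.2 CPM in depleted libraries against 11.2 and 11.3 CPM in controls. The means of 84.2 ± 2.88 and 11.2 ± 0.0851 CPM (SD, n = 2) differ 7.49-fold. In both genes the depleted libraries lie close together and far from the controls. Col5a1, a chain that limits the width of type I fibrils, had the smallest log2 fold change of the 30, 0.66 ± 0.11, with 26.4 and 28.0 CPM against 17.6 and 16.9 CPM.

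The stretches upstream of 4 of these genes are shown because they differ widely in composition while the genes all lie among the members called higher. Each line gives the 250 bases before the transcription start in RefSeq (GRCm38.p6), 5′ to 3′ on the gene's strand. Capitals mark matches on either strand to the TATA box (TATAAA), the CCAAT box (CCAAT) and the GC box (GGGCGG), 3 motifs that do not overlap one another here.
Col6a5, chr9:105960644-105960893, minus strand: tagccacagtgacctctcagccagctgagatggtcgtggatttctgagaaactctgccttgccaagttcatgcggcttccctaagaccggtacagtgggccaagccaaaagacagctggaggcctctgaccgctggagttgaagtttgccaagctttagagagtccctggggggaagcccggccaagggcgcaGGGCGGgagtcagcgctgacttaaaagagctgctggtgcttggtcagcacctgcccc
Col11a1, chr3:114030290-114030539, plus strand: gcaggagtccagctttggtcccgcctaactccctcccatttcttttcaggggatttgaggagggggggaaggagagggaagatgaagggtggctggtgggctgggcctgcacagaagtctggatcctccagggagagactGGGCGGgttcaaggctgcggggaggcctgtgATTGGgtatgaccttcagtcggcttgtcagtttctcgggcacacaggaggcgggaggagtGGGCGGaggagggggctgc
Col3a1, chr1:45311288-45311537, plus strand: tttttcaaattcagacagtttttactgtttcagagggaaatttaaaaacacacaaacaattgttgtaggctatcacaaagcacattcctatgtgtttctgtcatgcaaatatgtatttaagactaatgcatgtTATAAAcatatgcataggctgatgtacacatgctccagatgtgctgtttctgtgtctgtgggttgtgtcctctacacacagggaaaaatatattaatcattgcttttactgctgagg
Col5a1, chr2:27886175-27886424, plus strand: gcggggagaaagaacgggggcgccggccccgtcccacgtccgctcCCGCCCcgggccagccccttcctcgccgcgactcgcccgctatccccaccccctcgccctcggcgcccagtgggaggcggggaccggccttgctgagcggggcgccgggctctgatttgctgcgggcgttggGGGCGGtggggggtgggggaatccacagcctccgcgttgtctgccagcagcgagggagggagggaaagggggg
The Col5a1 stretch holds 28 CpG dinucleotides and 2 GC boxes, and the Col11a1 stretch holds 7 CpG, 2 GC boxes and 1 CCAAT box. Upstream of Col6a5 there are 8 CpG and 1 GC box. The Col3a1 stretch holds 0 CpG and 1 TATA box. Such a match is a string of letters and not a measured binding site.

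The RefSeq stretches at hand held 38 of this length for 35 members, and none was at hand for the other 9. A GC box was found in 57.9% of the collagen stretches and in 32.7% of all 32851 stretches of that length. A CCAAT box was in 34.2% against 33.9% and a TATA box in 13.2% against 12.4%. The median number of CpG was 9.5 in collagen stretches and 6 in all. Among the 23 stretches of members called higher after Ubc9 depletion 65.2% held a GC box, against 46.7% of the other 15 collagen stretches, counts that are too few to compare further.

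Of the 11 fibrillar genes, all of which were tested, 9 were higher in Ubc9-depleted cells, with a median log2 fold change of 1.36 over the class. With depleted library 2 alone this median was 1.17. Col5a2, the partner chain of Col5a1 in type V collagen, had 13.7 and 12.9 CPM in depleted libraries against 2.80 and 3.32 CPM in controls (log2 fold change 2.12 ± 0.15). Col3a1, the chain of type III collagen in elastic tissues, had 9.79 and 9.30 CPM against 3.46 and 4.00 CPM (1.36 ± 0.16). For these genes the depleted libraries agree within 1 CPM and do not overlap the controls. Col1a1 and Col1a2 encode the chains of type I collagen, the main collagen of bone, skin and tendon. Col1a1 had 9.10 and 9.94 CPM in depleted libraries against 4.83 and 3.95 CPM in controls (1.12 ± 0.16). Col1a2 had 4.76 and 3.22 CPM against 1.14 and 0.891 CPM (1.97 ± 0.34). Col1a2 differed more between the depleted libraries than Col1a1 did, but both lay above their controls in each.

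Col27a1, a fibrillar chain of cartilage, had 9.47 and 8.61 CPM in depleted libraries against 4.00 and 4.18 CPM in controls (1.14 ± 0.16). Col2a1, the main fibril chain of cartilage, had 4.63 and 4.22 CPM against 2.66 and 2.62 CPM (0.75 ± 0.26). The low fibrillar gene Col24a1 had 1.74 and 0.472 CPM against 0.103 and 0.141 CPM, with the depleted libraries far apart. It reached the level needed for testing only with the depleted libraries. The remaining pair did not pass the threshold. Col5a3 had 3.86 and 2.79 CPM in depleted libraries against 3.30 and 2.99 CPM in controls, so its groups overlap. Col11a2 had 2.25 and 0.485 CPM against 0.401 and 0.435 CPM, and its difference rests on depleted library 1.

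Of the 9 network genes, 6 were tested and 3 were higher in Ubc9-depleted cells, with a median log2 fold change of 1.54 over those tested. With depleted library 2 alone this median was 1.04. Col4a1 and Col4a2 encode the chains found in nearly all basement membranes. Col4a1 had 11.8 and 10.6 CPM in depleted libraries against 5.29 and 5.18 CPM in controls, and Col4a2 had 10.4 and 9.71 CPM against 4.94 and 4.24 CPM. Their log2 fold changes, 1.10 ± 0.14 and 1.13 ± 0.15, differ by less than their errors. The type IV chains of specialised membranes, such as those of the kidney filter, had at most 0.226 CPM in 3 of the 4 libraries. Col4a3 had 1.55 CPM in depleted library 1 and 0 to 0.0652 CPM elsewhere, and Col4a4 had 1.50 CPM there and 0.0103 to 0.0262 CPM elsewhere. Col4a6 had 0.879 CPM in that library and at most 0.0524 CPM in the rest, and these 3 genes did not reach the level needed for testing. Col4a5 was tested, with 1.17 and 0.144 CPM in depleted libraries against 0.226 and 0.206 CPM in controls, and did not pass.

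Col8a2, a chain of the hexagonal lattice under the corneal endothelium, passed as higher with 1.23 and 0.210 CPM against 0.0515 and 0.0217 CPM. Its partner Col8a1 had 1.52 and 0.995 CPM against 0.381 and 0.413 CPM and did not pass with both depleted libraries, but passed with library 2 alone (adjusted p = 0.011). Col10a1, a marker of hypertrophic cartilage, had 0.809 and 0.314 CPM against 0.226 and 0.174 CPM and did not pass either.

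Among the 9 FACIT genes, 7 were tested, 5 were higher and 1 was lower in Ubc9-depleted cells. The median log2 fold change over those tested was 1.83, and 1.01 with depleted library 2 alone. Col9a2, a chain of the type IX collagen that coats type II fibrils, was the 1 collagen gene called lower. It had 8.60 and 7.65 CPM in depleted libraries against 13.5 and 13.4 CPM in controls, and fell by 0.73 ± 0.12 on the log2 scale. Col9a3, another type IX chain, moved the other way, with 2.18 and 1.68 CPM against 0.381 and 0.163 CPM (2.82 ± 0.64). As a result the ratio of Col9a2 to Col9a3 per kilobase of exon was 4.92 and 5.68 in depleted libraries against 44.1 and 102.5 in controls. In the annotation 6.07% of the Col9a3 exons overlap Tcfl5 on the opposite strand, and whether the counting used strand is not given in the sources used here. The third chain, Col9a1, had 0.729 CPM in depleted library 1, 0 in library 2 and at most 0.0109 CPM in the controls.

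Col12a1 and Col22a1 encode FACIT chains of tendon fibrils and of tissue junctions. Col12a1 had 5.32 and 3.71 CPM in depleted libraries against 1.40 and 1.14 CPM in controls (log2 fold change 1.83 ± 0.31). Col22a1 had 4.71 and 3.56 CPM against 1.09 and 0.978 CPM (2.00 ± 0.32). Both FACIT genes were higher in each depleted library than in each control. Col14a1 had 1.72 and 0.707 CPM against 0.391 and 0.304 CPM, and Col16a1 had 2.45 and 0.511 CPM against 0.350 and 0.293 CPM. These passed with both depleted libraries but not with library 2 alone. Col20a1 had 3.22 and 2.49 CPM against 1.52 and 1.51 CPM and did not pass with both depleted libraries, but passed with either of them alone.

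All 15 genes of the last class were tested, and 13 were higher in Ubc9-depleted cells, with a median log2 fold change of 3.02. With depleted library 2 alone the median of this class was 2.03. Col13a1, a transmembrane collagen of the neuromuscular junction, had 10.4 and 11.0 CPM in depleted libraries against 2.73 and 2.65 CPM in controls (1.99 ± 0.16). All 6 type VI genes passed, but Col6a1, Col6a2 and Col6a6 reached the level needed for testing only with the depleted libraries. Besides Col6a5, Col6a3 had 4.29 and 3.39 CPM against 1.70 and 1.36 CPM (1.33 ± 0.31), and Col6a1 had 2.44 and 1.47 CPM against 0.268 and 0.0869 CPM (3.45 ± 0.69). Col6a1, Col6a2 and Col6a3 make up the classical type VI molecule. Col6a2 had 2.00 and 0.917 CPM against 0.134 and 0.0543 CPM, and Col6a4 had 1.96 and 0.904 CPM against 0.144 and 0.206 CPM. Col6a6 had 1.38 and 0.210 CPM against 0.0515 and 0.0326 CPM and did not pass with depleted library 2 alone (adjusted p = 0.059). Per kilobase of exon Col6a5 lay below Col6a3 in controls and above it after depletion. The ratio of Col6a5 to Col6a3 per kilobase was 5.46 and 6.86 in depleted libraries and 0.570 and 0.651 in controls.

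Col18a1, the basement membrane proteoglycan, was the most abundant collagen gene and did not rise. It had 160 and 153 CPM in depleted libraries against 207 and 166 CPM in controls, a log2 fold change of -0.25 ± 0.13 that did not pass, and -0.29 ± 0.11 with depleted library 2 alone, which did. Its share of collagen counts was 35.9% and 37.8% in depleted libraries and 69.5% and 65.2% in controls. Col7a1, the anchoring fibril chain of skin, rose to 3.26 and 1.62 CPM from 0.607 and 0.847 CPM. Col26a1 rose to 2.36 and 1.48 CPM from 0.443 and 0.445 CPM, and Col23a1, a transmembrane collagen, to 3.70 and 1.52 CPM from 0.998 and 0.674 CPM. Col17a1, a transmembrane chain of hemidesmosomes, had 2.90 and 1.99 CPM against 1.81 and 2.40 CPM and did not pass. Col15a1, Col25a1 and Col28a1 passed from control levels of at most 0.0823 CPM, and reached the level needed for testing only through the depleted libraries. They had 1.02 to 1.44 CPM in depleted library 1 and 0.131 to 0.288 CPM in library 2. With library 2 alone Col28a1 passed, while Col15a1 and Col25a1 did not (adjusted p = 0.26 and 0.058).

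How closely the depleted libraries agreed depended on the level of the gene. In fits with library 2 alone the spread comes from the controls only, so the calls there are given as a description. Of the 22 members with a control mean of at least 0.5 CPM, 17 were higher with both depleted libraries and 18 with library 2 alone. Of the 22 members below that level, 17 were tested, 13 were higher, and 9 were higher with library 2 alone. Of the 13, Col6a6, Col8a2, Col15a1, Col25a1 and Col28a1 had at most 8 counts in each control, under the minimum count of 10. They were tested only because they were higher in the depleted libraries, so their calls are no support for a rise. Col6a1, Col6a2 and Col24a1 had 26 and 8, 13 and 5, and 10 and 13 counts in controls 1 and 2. They did not reach the minimum, scaled to library size, in both controls. Their testing too rested on the depleted libraries, so their calls are no support for a rise either. The 12 members with a mean of at least 5 CPM in the Ubc9 table had a ratio of library 1 to library 2 between 0.915 and 1.12. Among the 9 members with at most 6 counts in each control, depleted library 1 held 73 to 155 counts (median 130) and library 2 held 0 to 22 (median 6). All 7881 genes of that kind had a median of 13 counts in library 1 and 0 in library 2, or 9.42 counts per kilobase in library 1 against 15.6 for the 9 collagen genes. The part of these low-level counts of library 1 in the calls of low collagen genes was not tested beyond leaving that library out.

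**Figure D2:**
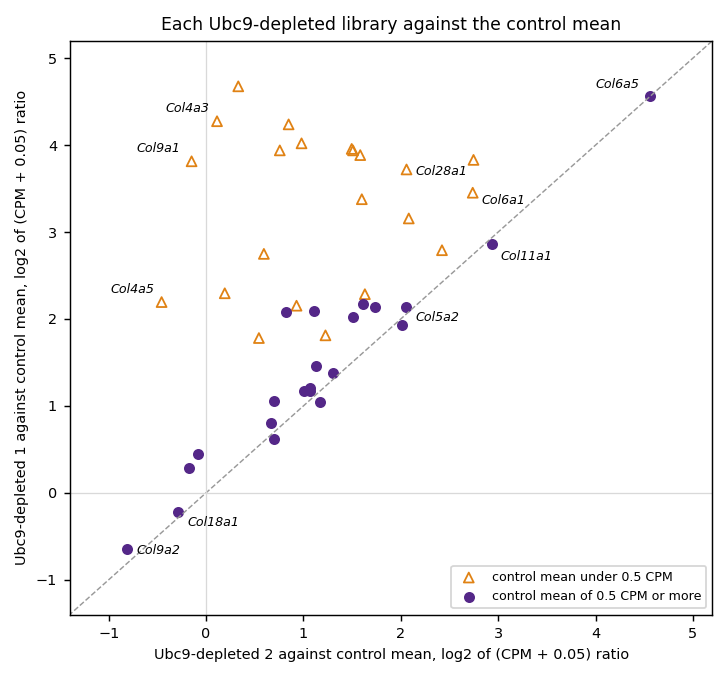
Log2 ratio of each Ubc9-depleted library to the control mean (CPM + 0.05) for the 44 collagen genes, library 2 on the horizontal and library 1 on the vertical axis, with the line of equal ratios dashed. Most circles, genes with a control mean of at least 0.5 CPM, lie near the line, with some above it, and the triangles, genes below that level, all lie above it.

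In 37 members both depleted libraries exceeded both controls and in 2 (Col18a1, Col9a2) they lay below, where 33.8% and 22.0% of all genes in the table did so. The 37 include Col19a1, Col4a4 and Col4a6, with 6, 2 and 4 counts in depleted library 2 and at most 3 in each control. Leaving out a library cannot undo this ordering, so its stability was not tested. Without depleted library 1 or 2 the median log2 fold change was 1.31 or 2.18 over the members tested, and -0.01 or 0.25 over all genes. Without control library 1 or 2 it was 1.98 or 1.91 over the members, and 0.24 or 0.22 over all genes. How many calls passed varied widely with the library left out, over members and over all genes. The count that follows is therefore not read as a trait of the collagens, and it was not made over all genes. In all, 13 of the 30 kept their call whichever library was left out, namely Col1a1, Col1a2, Col3a1, Col4a1, Col4a2, Col5a1, Col5a2, Col6a5, Col11a1, Col12a1, Col13a1, Col22a1 and Col27a1. Scaling by library totals raised the median over all genes (0.06) to 0.25 and changed their calls from 3479 higher and 2467 lower to 3983 higher and 1084 lower, while 28 collagen genes were higher and 1 lower.

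The order of collagen levels per kilobase of exon showed where the family changed most. Col18a1 was first in both groups, at 22.3 ± 0.721 CPM per kilobase in depleted cells and 26.6 ± 4.17 in controls (SD, n = 2), a difference about the size of the SD of the controls. In controls Col9a2 followed at 4.35 ± 0.0200, then Col5a1 at 2.03 ± 0.0527 and Col11a1 at 0.882 ± 0.00668. In depleted cells Col11a1 was second at 6.61 ± 0.226, ahead of Col5a1 at 3.21 ± 0.133, Col9a2 at 2.63 ± 0.217 and Col13a1 at 2.32 ± 0.0937. Col9a2 and Col13a1 differ there by about the sum of their SDs. Col6a5 moved from place 21 of 44 to place 6. The ratio of Col5a1 to Col5a2 per kilobase was 2.18 and 2.46 in depleted libraries and 7.09 and 5.76 in controls.

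Fewer collagen genes could be measured in the H1 comparison. Of the 20 members tested, 3 were higher and 2 lower in H1 TKO cells, and 15 did not pass (8 of all 20 had an unadjusted p under 0.05). Over all 14800 genes 8.59% were higher and 8.43% lower, so the shares among members rest on few calls. The median log2 fold change was 0.54 over these members and -0.02 over all genes tested. The other 24 members were too low to test, among them Col3a1 and Col6a5, and 13 had at most 3 counts in every H1 library.

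Col26a1 and Col5a2 rose furthest in H1 TKO cells. Col26a1 had 8.61 and 9.73 CPM in TKO libraries against 0.936 and 1.65 CPM in controls, a log2 fold change of 2.83 ± 0.36 (adjusted p = 0.003, edgeR). Per kilobase it went from place 9 among collagens to place 2, behind Col18a1. Col5a2, the type V chain, had 5.32 and 7.41 CPM against 1.15 and 0.660 CPM (2.81 ± 0.40, adjusted p = 0.0048). Neither gene's groups come near to overlapping. Col4a2 had 3.70 and 3.43 CPM against 0.952 and 1.07 CPM (1.82 ± 0.37, adjusted p = 0.017), and lost its call when TKO library 1 or 2 was left out (adjusted p = 0.098 and 0.076).

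Col18a1 and Col9a2 fell in H1 TKO cells. Col18a1 had 10.6 and 10.4 CPM in TKO libraries against 31.4 and 44.2 CPM in controls, and fell by 1.85 ± 0.25 on the log2 scale (adjusted p = 0.0035, edgeR). Its share of collagen counts was 18.7% and 18.2% in TKO libraries and 51.8% and 53.6% in controls, and it stayed the first collagen per kilobase. Col9a2 had 3.38 and 1.60 CPM against 6.12 and 9.56 CPM (-1.67 ± 0.43, adjusted p = 0.039), a call lost without TKO library 2 (adjusted p = 0.23). In both genes the TKO libraries lie below both controls.

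**Figure D3:**
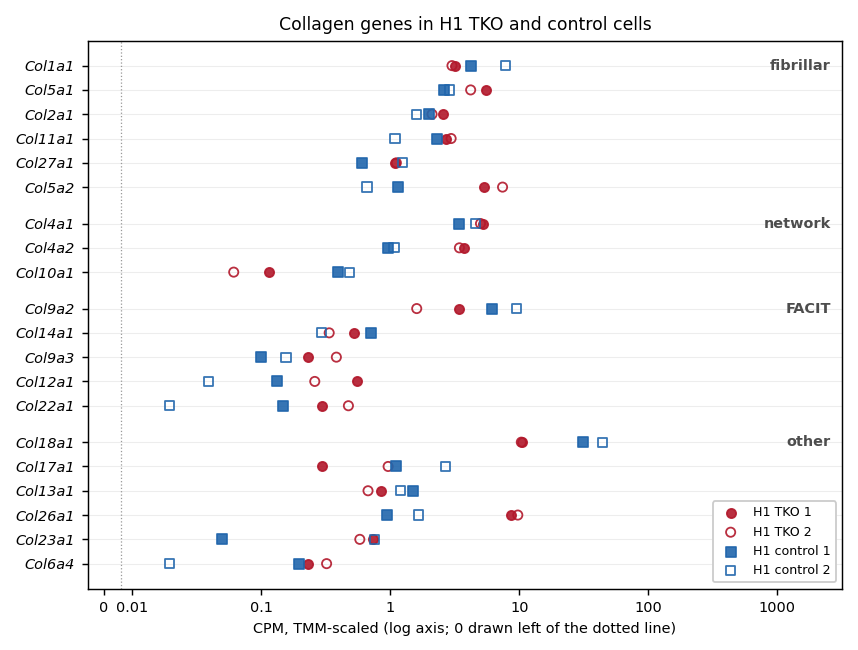
CPM (log axis) of the 20 collagen genes tested in the H1 comparison, in H1 TKO libraries (circles) and H1 control libraries (squares), by class. Circles lie to the right of the squares in Col5a2, Col4a2 and Col26a1 and to the left in Col18a1 and Col9a2, the 5 genes past the threshold.

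The other fibrillar genes did not pass in the H1 comparison. Col1a1 had 3.15 and 3.00 CPM in TKO libraries against 4.24 and 7.76 CPM in controls (log2 fold change -0.96 ± 0.36, adjusted p = 0.12). Col5a1 had 5.53 and 4.19 CPM against 2.61 and 2.87 CPM (0.82 ± 0.31, adjusted p = 0.12). Both had groups that do not overlap, with the controls of Col1a1 far from each other. Col11a1 had 2.69 and 2.96 CPM against 2.30 and 1.09 CPM (0.74 ± 0.45, adjusted p = 0.31). Col2a1 and Col27a1 had log2 fold changes of 0.37 ± 0.39 and 0.26 ± 0.57. Col13a1 had 0.845 and 0.671 CPM against 1.51 and 1.20 CPM (-0.84 ± 0.51, adjusted p = 0.30). Over all 44 members the TKO libraries lay above both controls in 16 and below in 6, where 22.4% and 19.9% of all genes did so. Without H1 control library 1 or 2 the median log2 fold change was 0.66 or 0.86 over the members tested, and 0.03 in each case over all genes tested.

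Several collagen genes lie next to each other, and the type IV pairs start head to head from a shared stretch. Col4a1 (chr8:11198423-11312826, minus strand) and Col4a2 (chr8:11312805-11449287, plus strand, GRCm38 and GENCODE M21) overlap by 22 bases at their starts. In the Ubc9 libraries the ratio of Col4a1 to Col4a2 per kilobase was 1.01 and 0.967 in depleted cells and 0.950 and 1.09 in controls, so the pair kept its proportion. In H1 TKO libraries it was 1.24 and 1.29, but in H1 controls it was 3.16 and 3.81. Col4a2 passed as higher, while Col4a1 had 5.18 and 5.0 CPM in TKO libraries against 3.40 and 4.58 CPM in controls (log2 fold change 0.35 ± 0.30, adjusted p = 0.46). The genes of chromosome 8 had a median log2 fold change of -0.53 in the H1 comparison, and relative to it Col4a1 and Col4a2 stood at 0.89 and 2.35.

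The low type IV pairs share this layout. Col4a4 and Col4a3 start 71 bases apart on chromosome 1, and Col4a6 and Col4a5 start 1308 bases apart on chromosome X. Col3a1 and Col5a2 end toward each other 24614 bases apart on chromosome 1. Of that pair Col5a2 passed in both comparisons, while Col3a1 had at most 0.0164 CPM in every H1 library. Col6a6, Col6a5 and Col6a4 follow each other on chromosome 9, with 27917 and 28810 bases between them. After Ubc9 depletion the mean CPM per kilobase was 1.95 ± 0.00921 for Col6a5 in the middle, 0.168 ± 0.0874 for Col6a4 and 0.0866 ± 0.0902 for Col6a6 (SD, n = 2).

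Across the comparisons, which share no libraries, 20 members were tested in both. Col26a1, Col4a2 and Col5a2 were higher and Col9a2 was lower in both. The difference between the changes, Ubc9 minus H1, was tested for 38 members in 1 fit of all 8 libraries, whose results had been seen in part when the family was chosen. It passed the adjusted threshold above 0 for 4 members and below 0 for 0, against 8.08% and 6.43% of all 16974 genes. Of the members 9 had an unadjusted p under 0.05, and DESeq2 also gave 4 and 0. The difference was 2.83 ± 0.39 for Col13a1 (adjusted p = 0.00098), 2.17 ± 0.39 for Col11a1 (adjusted p = 0.0042) and 2.05 ± 0.39 for Col1a1 (adjusted p = 0.0059). Col13a1 and Col1a1 were higher in both depleted libraries and lower in both TKO libraries than in any of their controls, and Col11a1 was 7.49-fold higher in one comparison and 1.67-fold in the other. For Col18a1 the difference was 1.58 ± 0.27 (adjusted p = 0.0032), with a much larger fall in H1 TKO cells. These 4 kept their call whichever of the 8 libraries was left out. Without H1 control library 1 the median difference was 0.79 over the members tested and 0.10 over all genes. Without H1 control library 2 it was 0.89 and 0.30.

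For the genes that passed in both comparisons no difference passed. It was -0.70 for Col5a2, -0.71 for Col4a2 and -0.75 for Col26a1, with adjusted p of 0.28, 0.17 and 0.35, and 0.93 for Col9a2 (adjusted p = 0.18). The kits also differ between the tables, and this cannot be told apart from the cell lines in such a difference.

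**Figure D4:**
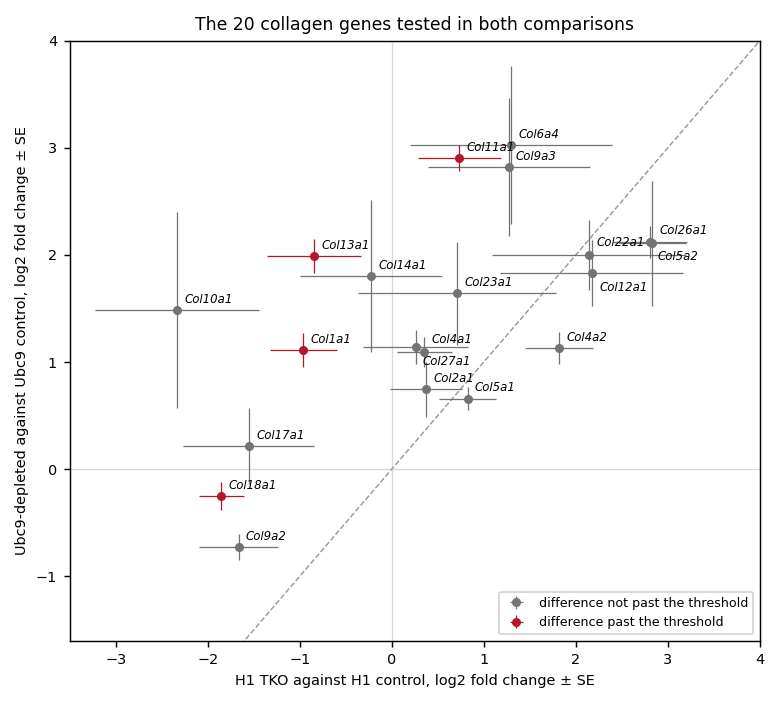
Log2 fold change ± SE in the H1 comparison (horizontal axis) and in the Ubc9 comparison (vertical axis) for the 20 collagen genes tested in both, with the line of equal change dashed. Red points (Col13a1, Col11a1, Col1a1 and Col18a1) are those whose difference passed the threshold, and all 4 lie above the line.

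The genes that modify, export, trim, cross-link and bind collagen changed in part. Of 49 such genes, 45 were tested in the Ubc9 comparison, 17 were higher and 5 lower, with a median log2 fold change of 0.60. This is 37.8% higher and 11.1% lower, beside 21.1% and 15.0% of all genes tested. With depleted library 2 alone 17 were higher and 7 lower of 44. In the H1 comparison 6 were higher and 3 lower of 40, and the median was -0.09. All genes gave 8.59% higher and 8.43% lower there. This list too was written with results of these data known.

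Hydroxylation genes gave 5 higher and 0 lower of 13 in Ubc9-depleted cells, and 3 higher and 2 lower of 12 with depleted library 2 alone. P4ha2, a catalytic subunit of prolyl hydroxylase, rose to 21.9 and 26.5 CPM from 4.19 and 3.69 CPM, and Plod2, which hydroxylates lysines of the chain ends, to 146 and 164 CPM from 40.9 and 47.7 CPM. The widely expressed subunits did not pass, P4ha1 with a log2 fold change of -0.24 and P4hb with -0.15. Colgalt2, a galactosyltransferase that glycosylates collagen, rose in both comparisons. It had 14.7 and 15.3 CPM in depleted libraries against 1.93 and 2.23 CPM, and 7.35 and 8.05 CPM in TKO libraries against 0.460 and 0.582 CPM. P4ha2 also rose in H1 TKO cells, by 1.25 ± 0.33 on the log2 scale (adjusted p = 0.042, edgeR), and so did the lysyl hydroxylase Plod1, by 1.25 ± 0.23 (adjusted p = 0.012).

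Chaperone and secretion genes went both ways in Ubc9-depleted cells, 3 higher and 4 lower of 9. Serpinh1, the collagen chaperone HSP47, rose to 100 and 116 CPM from 63.0 and 57.5 CPM, and Creb3l1, a transcription factor of the secretory pathway, to 7.61 and 7.92 CPM from 3.83 and 3.36 CPM. Fkbp14, a prolyl isomerase of the endoplasmic reticulum, fell by 1.11 ± 0.20 and Mia3, which loads procollagen for export, by 0.38 ± 0.12 on the log2 scale. In H1 TKO cells 0 of 9 passed in edgeR's test (2 had an unadjusted p under 0.05), and Serpinh1 had a log2 fold change of -0.72 (adjusted p = 0.068).

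Among procollagen processing genes 4 were higher and 1 lower of 7 after Ubc9 depletion. Pcolce and Pcolce2 enhance the removal of the C-terminal propeptide. Pcolce2 rose to 62.5 and 64.4 CPM from 20.1 and 22.1 CPM, while Pcolce fell by 0.59 ± 0.12 on the log2 scale. In H1 TKO cells Pcolce fell by 3.48 ± 0.29, to 11.2 and 12.2 CPM from 98.4 and 162 CPM (adjusted p = 0.00078, edgeR), and Pcolce2 had 72.8 and 76.9 against 71.5 and 73.6 CPM and did not pass. Of the 6 cross-linking genes, 2 were higher after Ubc9 depletion. Lox, the lysyl oxidase that starts cross-links, rose to 8.02 and 7.37 CPM from 2.54 and 2.80 CPM. Of the receptors 2 of 8 were higher after Ubc9 depletion, while Ddr1, a receptor kinase for collagen, did not pass there and rose by 1.08 ± 0.28 in H1 TKO cells (adjusted p = 0.038).

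**Figure D5:**
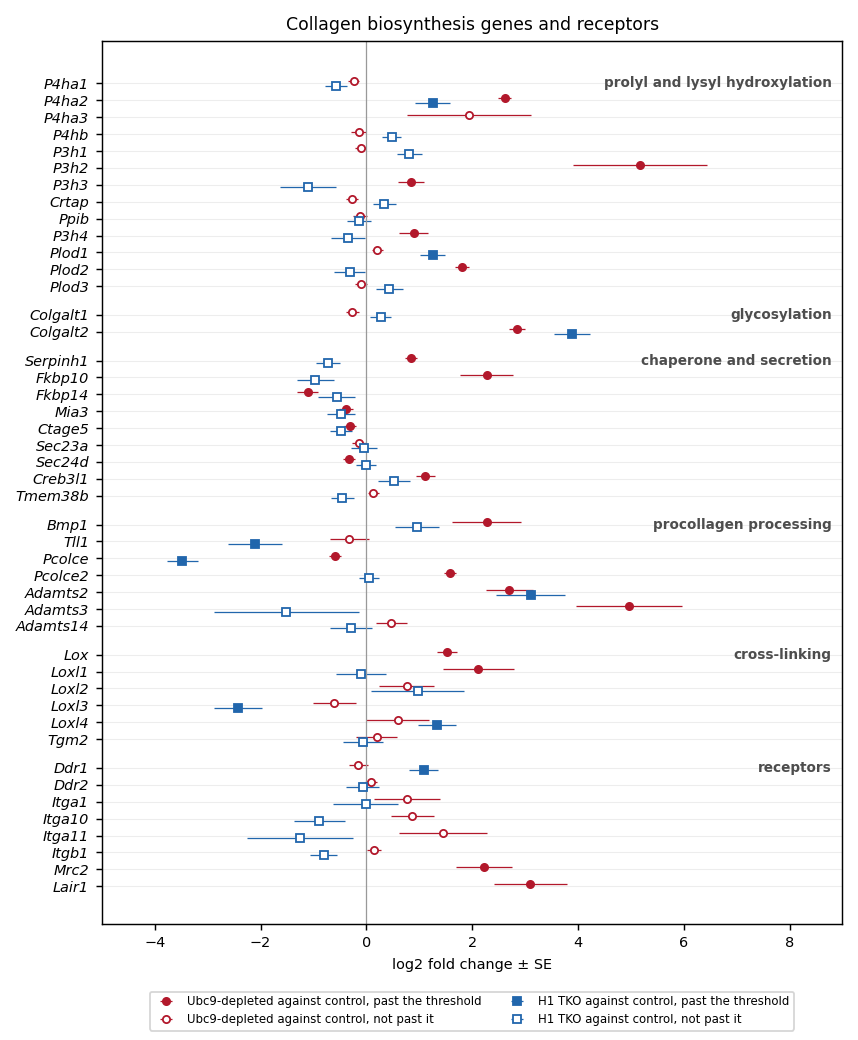
Log2 fold change ± SE of collagen biosynthesis genes and receptors in the Ubc9 comparison (circles) and the H1 comparison (squares), by role, with filled symbols for an adjusted p under 0.05. P4ha2, Colgalt2 and Adamts2 are filled on the right in both comparisons, and Pcolce is filled on the left in both.

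The marker sets of other cell types each held higher and lower genes after Ubc9 depletion. Of 15 fibroblast markers that are not collagens, 12 were tested in the Ubc9 comparison, 6 were higher and 1 (Vim) was lower. Over all genes tested 21.1% and 15.0% were higher and lower there, and 8.59% and 8.43% in the H1 comparison. Among the fibroblast markers Thy1, Pdgfra and Pdgfrb did not pass with both depleted libraries. The markers tested had a median log2 fold change of 1.45, and 1.29 with depleted library 2 alone. Of the 12, 10 had a positive log2 fold change in each of these fits. Over all genes 8994 of 16499 did so with both depleted libraries, and 8161 of 16454 with library 2 alone. Their summed level was 101 and 108 CPM in depleted libraries against 117 and 126 CPM in controls, most of it Vim. Postn, a matrix protein of fibroblasts, rose to 2.88 and 3.52 CPM from 0.988 and 1.09 CPM, and Dcn, a proteoglycan on collagen fibrils, to 2.81 and 1.30 CPM from 0.484 and 0.434 CPM. Fap had 0 counts in control library 1, and S100a4 had 0 counts in depleted library 2 and control library 2. In the H1 comparison 1 was higher and 2 lower of 8, with sums of 76.9 and 75.7 CPM in TKO libraries against 121 and 147 CPM, and Postn, Prrx1, Fap and S100a4 had 0 counts in all 4 libraries.

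Of 14 primitive endoderm markers, 12 were tested in the Ubc9 comparison, 6 were higher and 1 lower, beside 21.1% and 15.0% of all genes tested. The sums were 1316 and 1525 CPM in depleted libraries against 1727 and 1602 CPM in controls. The median log2 fold change was 0.48, and 0.29 with depleted library 2 alone. Among the 6, Thbd, Foxa2 and Foxq1 had 8.19, 0.719 and 1.25 CPM in depleted library 1 against 1.70, 0.157 and 0.170 CPM in library 2. Gata6 and Dab2 differed less between these libraries. In the H1 comparison 2 were higher and 0 lower of 11, beside 8.59% and 8.43% of all genes tested. The sums were 2083 and 2209 CPM in TKO libraries against 1442 and 1644 CPM in controls. Of the 8 naive ES cell markers 0 were higher and 2 lower after Ubc9 depletion, beside 21.1% and 15.0% of all genes tested. The sums were 4540 and 4631 CPM in depleted libraries against 4889 and 5128 CPM in controls. In H1 TKO cells 1 was higher and 0 lower, beside 8.59% and 8.43%. The sums were 10270 and 10150 CPM in TKO libraries against 5128 and 5549 CPM in controls. The marker called higher, Tfcp2l1, had 5416 and 4914 CPM in TKO libraries against 1778 and 1611 CPM in controls. The part of other cell types in the collagen values was not tested.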

How the data were processed

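Gene counts of 8 RNA-seq libraries were analysed in the 2 tables deposited by the authors, raw counts per gene symbol with no normalization. Per the submitters' processing notes the tools named are cutadapt, STAR, HTSeq and DESeq2 and the build is mm10. Tool versions, the annotation and the use of strand are not given in the sources at hand. Members and lists were chosen with earlier results of these data known. Each table was fitted on its own 4 libraries, without covariates, with edgeR 4.0.16 in R 4.3.3 (filterByExpr with a minimum count of 10 and total of 15, TMM factors, quasi-likelihood F test, Benjamini-Hochberg adjustment over all genes tested, threshold 0.05), and the difference of changes on all 8. The SE is the absolute log2 fold change divided by the square root of F. CPM use TMM-scaled library sizes, and levels per kilobase use GENCODE M21 exonic length (24046 of 24421 symbols matched). Precision is limited to 2 libraries a group at 44441713 to 102780141 counts each. Named were collagen members, and from the biosynthesis list up to 4 genes per role past the threshold with a mean of at least 5 CPM; Adamts2, P4ha1, P4hb, Postn and Dcn were named after their values were seen. Alternatives were DESeq2 1.42.0, RLE factors, library totals, no filter, a replicate block and leaving out each library, where a lone library is assumed to vary like the other group. Counts were simulated with 200 changed genes, drawn from those with a mean above 1 CPM. In them edgeR recovered 85% of 2-fold and 88% of 4-fold changes in the Ubc9 design (16499 genes) and 36% and 97% in the H1 design (14800 genes). Of its calls 2.81% and 13.1% were false, the latter above the nominal 5%. Changes in lower genes and the low-level counts of depleted library 1 were not simulated, so these rates do not cover low collagen genes. The check of the gene targeted in the Ubc9 cells is not reported here.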

Additional observations from a re-analysis of the deposited data

Results flagged for a closer look

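The difference between the Ubc9 change and the H1 change passed the threshold for 4 of 38 collagen genes tested, all above 0. The test was 1 edgeR fit of all 8 libraries (Benjamini-Hochberg adjusted). This is 10.5% of the members, near the 8.08% of all 16974 genes above 0, so the count itself says nothing particular about collagens. The difference was 2.83 ± 0.39 (log2, SE) for Col13a1 with an adjusted p of 0.00098. For Col11a1 it was 2.17 ± 0.39 (adjusted p = 0.0042), for Col1a1 2.05 ± 0.39 (adjusted p = 0.0059) and for Col18a1 1.58 ± 0.27 (adjusted p = 0.0032). The comparisons used different library kits and cell lines, which cannot be told apart from the treatments in this test.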

How the results depend on the processing

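Leaving out each library in turn gave 14 to 40 higher and 1 to 2 lower collagen genes in the Ubc9 comparison, 2 to 5 higher and 1 to 4 lower in the H1 comparison, and 4 to 9 with a Ubc9 change above and 0 to 2 below the H1 change. Filtering anew changed how many members were tested (39 to 44, 20 to 26 and 38 to 44). The number of calls varied widely with the library left out, over the members and over all genes. DESeq2, RLE factors, library totals and no filter gave 31, 33, 28 and 34 higher in the Ubc9 comparison and 1 lower each. In the H1 comparison they gave 3 higher and 2 lower, except 3 lower with no filter. With a replicate block there were 29 higher and 1 lower in the Ubc9 comparison, and 3 higher and 2 lower in the H1 comparison. The difference of changes then passed above 0 for 4 members and below 0 for 0. The deviations of libraries with the same number correlated at r = -0.011 in the Ubc9 table and 0.199 in the H1 table, and with 2 libraries a group and no shared source in the labels the numbers are not taken as pairs. Scaling by library totals moved the median difference of changes over all genes from 0.10 to 0.40 and its calls from 1372 above and 1092 below to 1914 and 635, and RLE factors to 1215 and 1342, with the same 4 collagen genes above. Among members that did not pass, leaving out each library changed some signs. In the Ubc9 comparison the log2 fold changes ranged from -0.084 (without depleted library 1; -0.0017 without control library 1) to 0.40 for Col17a1, from -0.59 (without depleted library 1) to 2.35 for Col4a5, and from -0.18 (without depleted library 1; -0.026 without control library 2) to 0.21 for Col5a3. In the H1 comparison they ranged from -0.73 to 0.55 (without control library 1; 0.069 without TKO library 2) for Col14a1, from -0.21 (without control library 1) to 3.67 for Col23a1 and from -0.16 (without control library 1) to 0.86 for Col27a1. The causes were not tested. At most 3 counts in every library, as for 13 members in the H1 table, allow no statement about a change.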
